A study of Mus musculus with 2 samples.

Results

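Il21-expressing CD4 T cells were examined in 2 mice of different genotype, a WT animal labelled Foxp3Cre and a DKO-severe animal labelled Foxp3-Cre Tet2/3fl/fl. Members were chosen by their own raw counts of unique molecular identifiers (UMIs). A cell had to hold at least 500 genes, at most 10% mitochondrial UMIs, at least 1 UMI of Cd3d, Cd3e or Cd3g, at least 1 of Cd4 and at least 1 of Il21. It had to hold no UMI of Cd8a, Cd8b1 or Foxp3, and at most 2 UMIs of Dscam, Penk and Hapln1 together. Of 14350 barcodes in both matrices, 626 passed. The DKO-severe matrix gave 607 of its 7161 barcodes and the WT matrix 19 of its 7189, and no barcode was shared between the matrices. The same gate without Il21 held 1286 DKO-severe cells and 1685 WT cells, which served as the comparison. Since Il21 UMIs selected the members, the level of Il21 is given as a description only.

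Both mice were 14 weeks old and carried Cre expressed from Foxp3, so the WT mouse differed by its intact Tet2 and Tet3 genes. In the DKO-severe mouse, this Cre acted on floxed alleles of both genes, which encode dioxygenases that oxidise methylated cytosine. TCRβ+ cells were sorted from spleen and from cervical and inguinal lymph nodes pooled per mouse, tagged with a hashtag antibody for each genotype, and measured by 3' single-cell RNA sequencing. In every member the hashtag of its own genotype exceeded the other. Foxp3 drives the Cre and members held no Foxp3 UMI. Tet2 stood at 85.6 counts per 1000000 counts of the pool (CPM) in the DKO-severe members against 51.4 in WT cells without Il21, and Tet3 at 102 against 116. Counts taken from the 3' end of a transcript do not check an upstream deletion. With 1 mouse per genotype and cells that are not replicates, no test was made. Intervals are exact 95% intervals of counting error alone. A gene was called higher or lower when the ratio of its summed counts was at least 2-fold.

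Interleukin 21 is the cytokine by which T follicular helper (Tfh) cells help B cells. It acts through its own receptor and the common gamma chain on JAK1, JAK3 and STAT3, and drives germinal centre B cells and plasma cell formation. Tfh cells are known by the chemokine receptor CXCR5, the receptors PD-1 (Pdcd1) and ICOS, and the transcription factors BCL6, MAF, ASCL2 and TOX2. MAF, BATF and IRF4 act on the Il21 gene itself.

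Il21 lies on the minus strand of chromosome 3 between 37222759 and 37232636 (mm10). Its start region, chr3:37232587-37232886, and that of its neighbour Fgf2, a fibroblast growth factor gene, at chr3:37348403-37348702 on the plus strand, are shown because Fgf2 had the highest level ratio of the genes around Il21 that passed the filter used below. CpG dinucleotides, the substrate context of the TET enzymes, are in capitals, and the letters come from RefSeq (GRCm38.p6, 250 bases before to 50 after the start).
Il21: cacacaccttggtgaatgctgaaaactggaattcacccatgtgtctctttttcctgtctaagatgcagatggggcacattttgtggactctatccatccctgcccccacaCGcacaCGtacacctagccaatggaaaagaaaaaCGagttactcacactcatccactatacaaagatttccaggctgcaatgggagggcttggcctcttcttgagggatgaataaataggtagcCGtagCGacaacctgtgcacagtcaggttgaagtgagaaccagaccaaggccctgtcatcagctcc
Fgf2: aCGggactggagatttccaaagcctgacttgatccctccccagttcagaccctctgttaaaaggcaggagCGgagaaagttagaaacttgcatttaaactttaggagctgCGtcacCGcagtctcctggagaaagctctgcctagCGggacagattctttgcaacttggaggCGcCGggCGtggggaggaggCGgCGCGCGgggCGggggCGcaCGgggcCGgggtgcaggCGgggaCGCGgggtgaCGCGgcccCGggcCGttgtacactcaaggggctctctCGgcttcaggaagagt
The Il21 sequence held 5 CpG dinucleotides and that of Fgf2 held 24, where the median over 32851 such regions was 7 and 43.6% of them held as few as that of Il21. The letters GGAAA, the core bound by NFAT factors, occurred 3 times in the Il21 region, both strands counted, and 1 time in that of Fgf2. At least 3 matches were found in 9.4% of all regions. TGANTCA, the AP-1 motif, occurred in neither, against 7.81% of all regions.

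In the DKO-severe gate, 32.1% of cells (607 of 1893) held an Il21 UMI, at a median of 7532 UMIs per cell. In the WT gate the share was 1.12% (19 of 1704, 0.673 to 1.74%) at a median of 5265 UMIs. Cd8-gated cells, which should make little Il21, gave the background at 1.11% (20 of 1804, median 9310 UMIs) in the DKO-severe and 0.429% (14 of 3260, median 6304 UMIs) in the WT matrix. The DKO-severe share was thus far above its background, and the intervals of the WT share and of its background (0.235 to 0.719%) overlapped. After every cell was thinned to 3900 UMIs before the gates, the shares were 22.5% (349 of 1548, interval 20.5 to 24.7%) and 0.901% (11 of 1221, 0.451 to 1.61%), with Cd8-gated cells at 1.07% and 0.350%. Foxp3-positive CD4 cells of the DKO-severe mouse held Il21 in 9.70% of cells (36 of 371, median 12308 UMIs). At the thinned depth none of 92 such cells did, for which 3 counts of the total allow a share of cells with a UMI of up to 3.26% (exact binomial upper limit 3.93%). Foxp3-negative cells with more than 2 UMIs of Dscam, Penk and Hapln1, left out by the rule, held it in 29.5% (184 of 623, median 10784 UMIs), or in 13.3% at the thinned depth (52 of 392, 10.1 to 17.0%). The gates were applied anew after thinning, so a cell that lost its Foxp3, Cd4 or Dscam UMIs could leave its group or enter another. Thinned shares are thus not those of the same cells, and a cell with no Foxp3 UMI is not shown to lack Foxp3.

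Il21 detection went with depth, and how far cell state shared in this was not tested. When the DKO-severe gate was cut into 5 equal bins by total UMIs, from the lowest to the highest the Il21-positive share went from 14.8% to 49.9%, with median depths of 4589 and 14378 UMIs. Most members held few molecules: 230 had 1 Il21 UMI, 151 had 2, 156 had 3 or 4 and 70 had 5 or more, up to 13. Of the WT members, 16 had 1 UMI and 1 each had 2, 3 and 5. Cells just inside the rule (1 Il21 UMI) had Tox2 at 244 CPM, Maf at 719 and Cntn5 at 3168, and cells just outside it (0 UMIs) had 91.3, 329 and 1239. At the limit on Dscam, Penk and Hapln1, the 40 Il21-positive cells with 2 UMIs had Maf at 672 CPM. The 24 with 3 UMIs, which the rule left out, had 645. The 458 with 0 UMIs had Maf at 779 CPM and Tox2 at 235, and the 12 with 5 UMIs had 444 and 114. Maf was lower with each further UMI over this range.

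The given markers of these cells were all higher in the members. They were chosen with earlier results of these data known, so their direction is not independent evidence. Tox2 (chromosome 2, 163203125 to 163324170), an HMG-box factor of Tfh differentiation, stood at 225 CPM in the DKO-severe members and 91.3 in the cells without Il21, a log2 ratio of 1.30 (1.18 to 1.42). For Maf (chromosome 8, 115682942 to 115707794), 765 CPM stood against 329, and the log2 ratio was 1.22 (1.15 to 1.28). Pdcd1 (chromosome 1, 94038305 to 94052553) was at 140 CPM in members and 67.6 in the others, with a log2 ratio of 1.05 (0.91 to 1.20). It was under 2-fold when cells were thinned before the gates (0.75), without the limit on Dscam, Penk and Hapln1 (0.79) and with immunoglobulin, haemoglobin, mitochondrial and ribosomal genes out of the total (0.97). Icos (chromosome 1, 60977927 to 61000320) was the marker with the smallest difference, 550 CPM against 324 with a log2 ratio of 0.76 (0.69 to 0.83). At 3900 UMIs per cell, Maf was found in 88.6% of members (523 of 590) and 53.3% of the cells without Il21 (641 of 1202). Tox2 was found in 47.5% and 20.7%, Pdcd1 in 37.5% and 17.6%, and Icos in 83.7% and 53.6%. At all UMIs these shares were 97.4% and 65.2% for Maf, 70.2% and 29.5% for Tox2, 61.6% and 27.7% for Pdcd1, and 96.0% and 66.3% for Icos. WT cells without Il21 had lower levels of all 4, between 10.5 CPM for Tox2 and 92.7 for Icos.

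**Figure D1:**
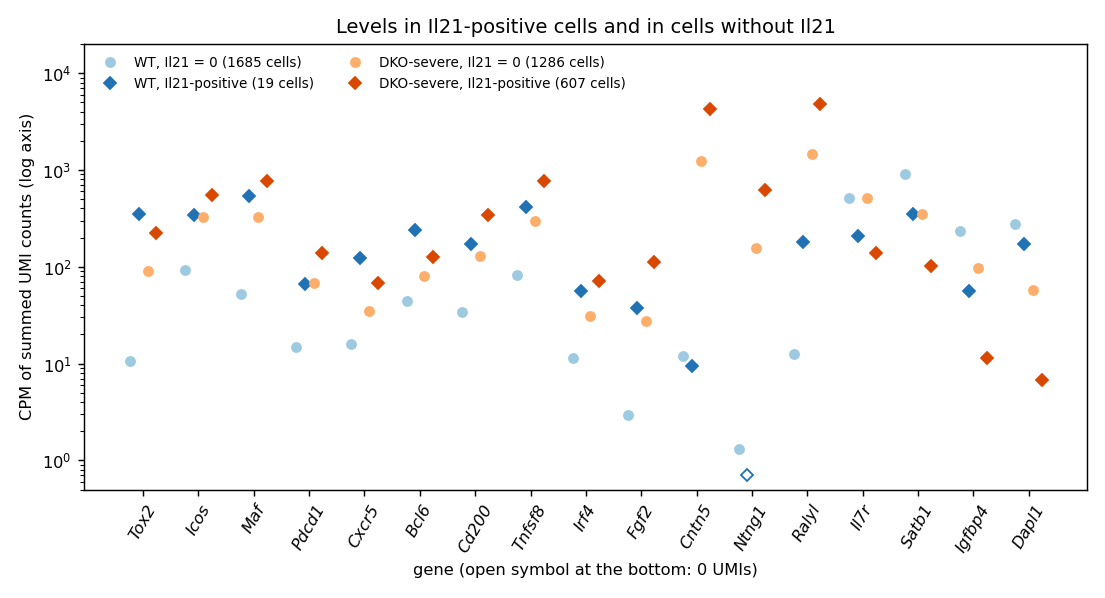
CPM of summed UMI counts (log axis) of 17 genes in 4 pools of cells, Il21-positive (diamonds) and Il21 = 0 (circles), from the WT (blue) and DKO-severe (orange) mouse. Each point is 1 pool of 1 mouse with no error bar, and an open symbol marks 0 UMIs. Tfh genes sit higher in both Il21-positive pools than in the pool without Il21 of the same mouse, Cntn5 and Ntng1 are higher in the DKO-severe pools than in the WT pools, and the 4 naive genes at the right sit lowest in the DKO-severe Il21-positive pool.

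Across the 6366 genes with a mean of at least 20 CPM and 100 UMIs, 171 (2.69%) were called higher and 97 (1.52%) lower in the members than in the cells without Il21, with a median log2 ratio of 0.04. All 11 genes of the Tfh list other than Il21 were above 0, with a median log2 ratio of 0.76, and 3 of the 9 that passed the filter were called higher. Cxcr5 was at 68.1 against 35.0 CPM and Bcl6, the lineage factor of Tfh cells, at 127 against 80.2, both under 2-fold. Ascl2, which induces CXCR5, was below the filter 16.4 CPM against 5.22 with a log2 ratio of 1.65 (1.17 to 2.16). Of 26 further Tfh genes, 23 were above 0 with a median of 0.96, and 9 of 23 past the filter were called higher and none lower. Cd200, a surface glycoprotein of Tfh cells, was at 341 against 129 CPM, Tnfsf8 (CD30 ligand) at 763 against 294, and Angptl2, a secreted glycoprotein, at 92.6 against 20.9. Sostdc1, a secreted Wnt and BMP antagonist made by a subset of Tfh cells, had the largest difference of the list, 44.5 CPM against 5.02 with a log2 ratio of 3.15 (2.72 to 3.60), and was found in 59 members.

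The naive list was lower throughout. All 14 of its genes were below 0, with a median log2 ratio of -1.30, and 8 of 14 were called lower. Il7r, the receptor for the survival cytokine IL-7, was at 139 CPM in the members and 510 in the cells without Il21. Satb1, a chromatin organiser, was at 102 against 347 CPM. Igfbp4 and Dapl1 had the lowest ratios of the list, both -3.09. Tcf7, which naive and Tfh cells both use, differed least with Bach2, at 275 against 342 CPM.

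**Figure D2:**
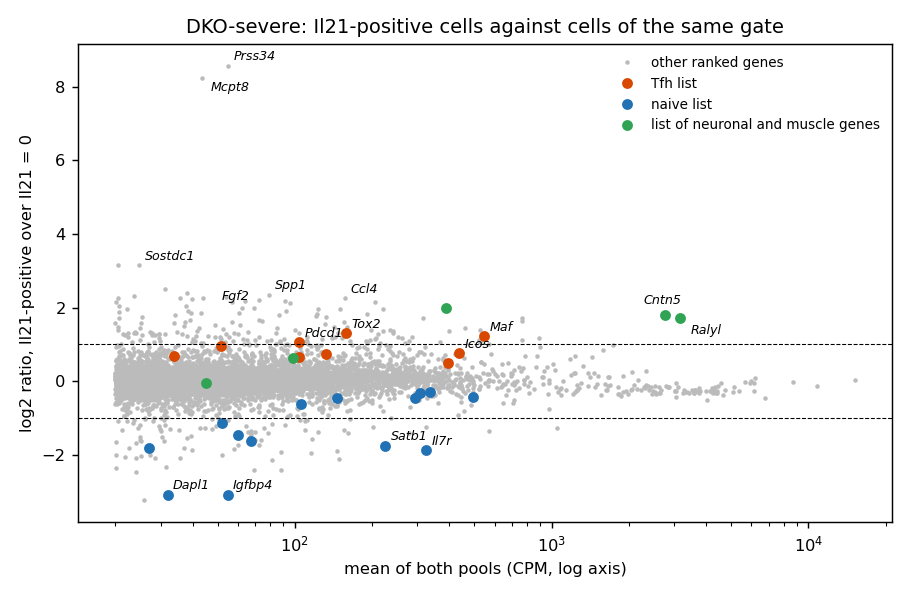
Log2 ratio of the DKO-severe Il21-positive cells over the Il21 = 0 cells against the mean level of both pools (CPM, log axis), 1 point per ranked gene, with dashed lines at 2-fold. Tfh genes (orange) lie above 0, naive genes (blue) below, and Prss34 and Mcpt8 at the top come almost wholly from 1 cell.

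Among the 15 genes with the highest ratios, Prss34 and Mcpt8, proteases of basophils, had 691 and 546 UMIs in the members and none in the other cells, but 690 and 525 of these came from 1 cell. The rest were spread over 59 to 194 members. Vdr, the vitamin D receptor, was found in 194 members, at 52.9 against 9.37 CPM (log2 ratio 2.50). Vat1l was found in 194 as well, at 72.9 against 15.2 CPM. Pparg, a nuclear receptor of lipid metabolism, stood at 34.0 against 7.05 CPM in 61 members. Gm49708, Lpar3, a lysophosphatidic acid receptor, Cd109, Zfp536, Gm28494, Sorcs1 and Scg2 had log2 ratios between 2.20 and 3.15. Spp1, osteopontin, was at 133 against 26.1 CPM and the chemokine gene Ccl4 at 259 against 54.0. For Ccl4, 1625 UMIs came from 63 members, with 237 in 1 cell, whereas 119 cells without Il21 held its 559 UMIs, so members with Ccl4 were a minority with many copies each. Its log2 ratio was 2.26, and 0.95 when cells were thinned before the gates.

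Of the 15 lowest, Ctla2a had a log2 ratio of -3.24 (4.94 against 46.6 CPM), followed by Dapl1, Igfbp4 and Trat1, a T cell receptor-associated adaptor, at -3.07. Camk4, a calcium-dependent kinase, was at 28.1 against 149 CPM and Grap2, an adaptor of T cell receptor signalling, at 55.3 against 241. Klrd1, Ly6c2, Atp8a2, App, Airn, Pik3ip1, an inhibitor of PI3 kinase, Pkp4 and Rundc3b lay between -2.48 and -2.06. Slpi was at 22.0 against 117 CPM, but 977 of its 1213 UMIs in the cells without Il21 came from 1 cell.

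Among 27 T cell cytokine and chemokine genes other than Il21, 13 of 20 with a ratio were above 0, and 4 of 11 past the filter were called higher and 1 lower. The cytokines of other helper lineages were low in members: Ifng stood at 9.57 CPM against 10.8, and Il17a, Il17f and Il22 had no UMI in 607 members. Il4, also made by Tfh cells, was at 22.3 against 14.3 CPM. Il10 was at 9.09 against 2.80 CPM (log2 ratio 1.70, 1.03 to 2.40) and Il2 at 11.3 against 5.41, both under the filter. Of the 43 Il13 UMIs, 35 came from 1 cell. Ccl5 was at 322 against 818 CPM and Xcl1 at 2.39 against 19.9. The transcription factor Eomes was at 1.91 against 17.5 CPM, and Irf4 at 71.6 against 30.9. Of the 15 genes known to act upstream of Il21, 12 were above 0 with a median of 0.66, among them Nfatc1 at 281 against 128 CPM. Genes of IL-21 signalling had a median of -0.11: the receptor Il21r was at 100.0 against 87.2 CPM and Stat3 at 165 against 147, while Socs3, a feedback inhibitor of STAT3, was at 12.9 against 37.2 CPM (log2 ratio -1.53).

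Inhibitory and costimulatory receptors had a median log2 ratio of 0.60 over 19 genes. Lag3 was at 200 against 87.0 CPM and Btla at 497 against 239, and both were called higher, whereas Cd226 and Cd96, a pair of receptors for nectin-like ligands, were called lower at 55.3 against 127 and 10.8 against 43.9 CPM. Among genes of chronically stimulated T cells the median was 0.89 over 12, with Tox at 2303 against 1174 CPM. This list shares Pdcd1 with the receptor list. Genes induced by T cell receptor signals had a median of 0.26 over 18, with Egr2 at 28.5 against 10.3 CPM and Myc at 6.70 against 23.3. Treg-associated genes had a median of 0.39 over 15: Nrp1 was at 257 against 122 CPM and Izumo1r (folate receptor 4) at 762 against 378. Ikzf4 and Lrrc32 were at 2.23 and 0.478 CPM. The medians of the other T cell lists were between -0.85 and 0.27. They were -0.85 for cytotoxic genes, -0.65 for interferon-stimulated genes, -0.47 for chemokine receptors, -0.27 for lineage factors and for stress genes, -0.23 for integrins, 0.08 for DNA methylation enzymes, 0.13 for cell cycle genes and 0.27 for glycolysis genes, against 0.04 over all genes tested.

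Markers of other cells were present beside these values. Of the members, 58 (9.56%) held at least 3 UMIs of B cell, plasma cell, myeloid, granulocyte or erythroid genes, against 66 (5.13%) of the cells without Il21. Summed over 15 B cell genes the level was 2292 against 1239 CPM, of which 1342 and 482 were Igkc. Myeloid genes summed to 717 against 580 CPM, granulocyte genes to 1928 against 2773, NK genes to 202 against 203, CD8 genes to 483 against 450 and erythroid genes to 1106 against 336. The median log2 ratios of these lists were 0.38, 0.61, -0.53, -0.19, -1.42 and 1.41. Without the cells that held such UMIs, 183 genes were called higher and 110 lower.

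Ralyl, an RNA-binding protein gene of neurons on chromosome 3 (13471655 to 14182287), belongs to a list of 9 genes that an earlier analysis of these data found higher in DKO-severe CD4 cells, so its direction is not independent evidence. Its use to divide the gate was chosen after its values were seen. The list had a median log2 ratio of -0.05, and 3 of the 5 genes past the filter, Ralyl, Cntn5 and Ntng1, were called higher. Ralyl was found in 96.2% of members (584 of 607) and 44.0% of the cells without Il21 (566 of 1286), or 95.1% and 39.9% at 3900 UMIs per cell. In Cd8-gated cells of the same matrix the share was 7.26%. Its level was 4851 CPM in the members, 1476 in the cells without Il21 and 12.5 in WT cells without Il21. Read the other way, Il21 was detected in 3.10% of gate cells with no Ralyl UMI (23 of 743), in 5.41% with 1 to 4 UMIs, in 35.4% with 5 to 14, in 55.8% with 15 to 49 and in 72.0% with 50 or more (236 of 328). The median depths of these bins were 6886, 7045, 7180, 7440 and 9666 UMIs. The intervals of the first and second bin overlapped (1.97 to 4.61% and 2.36 to 10.4%). At 3900 UMIs per cell, 1.86% of cells without Ralyl (14 of 752) and 36.3% of cells with it (378 of 1040) held Il21. These cells were gated at all UMIs and then thinned. The Cd8-gated share of 1.07% came from gates applied anew after thinning, so it is not a like comparison.

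Cntn5, a neuronal adhesion molecule gene on chromosome 9 (9660891 to 10904775), divided the members further. Of the members 55.5% (337) held at least 5 Cntn5 UMIs, against 15.6% (201) of the cells without Il21. The Il21-positive share was 18.5% (223 of 1205) in gate cells without Cntn5, 31.3% with 1 to 4 UMIs and 58.3% with 5 to 14. It was 60.7% with 15 to 29, 61.7% with 30 to 59 and 66.1% with 60 or more, and the intervals of these last bins overlapped. At 3900 UMIs per cell, 11.7% of cells without Cntn5 (139 of 1192) and 42.2% of cells with it (253 of 600) held Il21. Cells with at least 1 Ralyl UMI but under 5 Cntn5 UMIs held Il21 in 40.4% (249 of 617). Cells with at least 1 Ralyl and 5 Cntn5 UMIs held it in 62.9% (335 of 533). Ralyl levels were not matched between these groups. With at least 5 Ralyl UMIs, 58.0% of members (334 of 576) and 43.9% of cells without Il21 (187 of 426) held at least 5 Cntn5 UMIs. Ntng1, netrin G1, was at 620 against 156 CPM. The genes Myl1, Kcnh5, Dpp10 and Mal of the same list were lower in members, between 0.797 and 4.14 CPM, against 8.98 to 22.6 CPM in the cells without Il21.

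**Figure D3:**
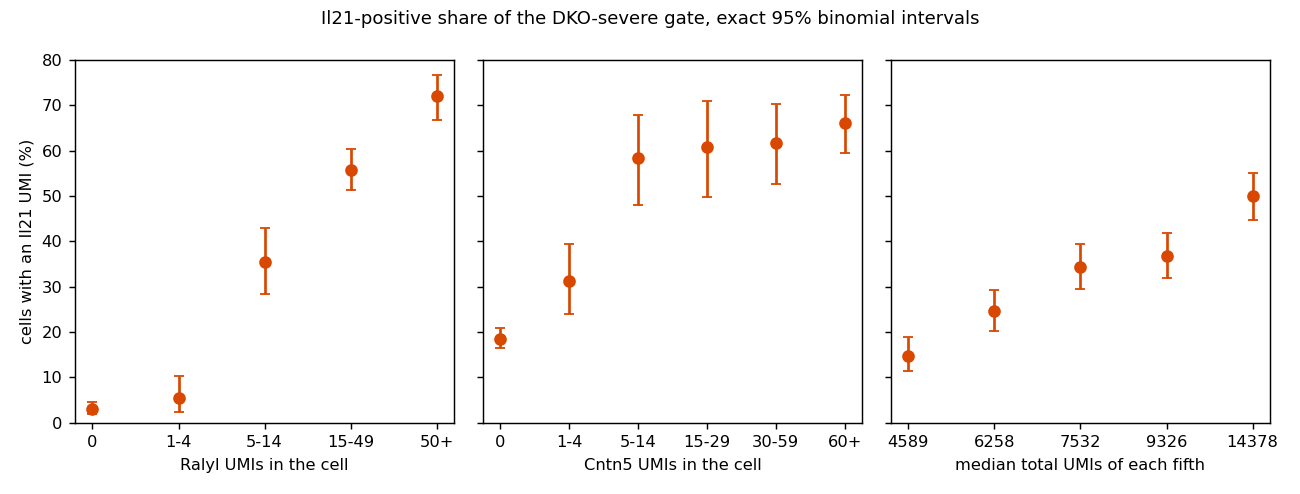
Share of DKO-severe gate cells with an Il21 UMI (percent, with exact 95% binomial intervals) by Ralyl UMIs, by Cntn5 UMIs and in 5 equal bins of total UMIs. The share goes from 3.10% to 72.0% across Ralyl bins, lies between 58.3% and 66.1% from 5 Cntn5 UMIs up, and goes from 14.8% to 49.9% across depth bins.

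Within cells that held at least 5 Ralyl UMIs, fewer genes passed 2-fold. The 576 members of that kind were compared with 426 cells without Il21, a division chosen after the values were seen. Of 6392 genes, 30 (0.469%) were called higher and 11 (0.172%) lower. The Tfh list median was 0.32 and the naive median -0.26, against 0.76 and -1.30 in the whole gate. For genes known to act upstream of Il21 the median was 0.32, against 0.66, and for genes of chronically stimulated T cells 0.15, against 0.89. Tox2 was at 226 CPM in Ralyl-high members and 171 in Ralyl-high cells without Il21, against 48.3 in the remaining cells without Il21. Maf stood at 783, 608 and 178 CPM in the same order, Pdcd1 at 142, 120 and 39.5, and Lag3 at 207, 192 and 30.6. Dapl1 stood at 6.10, 6.35 and 84.5 CPM and Igfbp4 at 11.7, 9.95 and 145. For these genes the Ralyl-high cells with and without Il21 were thus nearer to each other than to the rest of the gate. The naive gene Il7r was still lower in members within Ralyl-high cells, at 132 against 220 CPM. Sostdc1 (46.6 CPM, log2 ratio 1.84), Spp1 (138 CPM, 1.68), Ccl4 (275 CPM, 1.28) and Angptl2 (96.5 CPM, 1.01) remained past 2-fold. The 5 highest ratios belonged to Prss34, Mcpt8, Ltf, Ngp and Lcn2, with between 65.8% and 99.9% of their UMIs in 1 member. Glis3, Ly6c2, Neto1, Btbd11 and the granule protease Prtn3 had the lowest, with 55.9% of the Prtn3 UMIs without Il21 in 1 cell, and Ly6c2 was at 25.6 against 137 CPM.

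The same was tried within Cntn5. Cntn5-high members differed from the 201 Cntn5-high cells without Il21 by 14 of 6383 genes called higher (0.219%) and 16 lower (0.251%), with a Tfh median of 0.21. The highest were Ccl4 (82.5 against 15.3 CPM), Sorcs1 (59.1 against 11.1), S100a5, Akr1c18 and Sostdc1. The lowest were Apoc4, S100a9, S100a8, Apoe and Ly6c2, for each of which 1 cell without Il21 held between 36.5% (Apoe) and 87.3% (S100a9) of that group's UMIs. Irf4 was at 82.5 against 38.1 CPM. Members with under 5 Cntn5 UMIs differed from their 1085 counterparts without Il21 by 208 of 6348 genes higher (3.28%) and 104 lower (1.64%), with a Tfh median of 0.87 and a naive median of -1.40. Prss34, Mcpt8, Lce1a1, Cxcl3 and Apoc4 were at the top there and Igfbp4, Dapl1, Ctla2a, Trat1 and Slpi at the bottom. Of these 10, the 5 highest had between 40.4% (Apoc4) and all of the members' UMIs in 1 cell, and Slpi had 82.8% of those without Il21 in 1 cell. When all 607 members were set against the Cntn5-high cells without Il21, 33 of 6423 genes were higher (0.514%) and 9 lower (0.140%). The highest were Prss34, Mcpt8, Ngp, Camp and Ltf, genes of granulocytes or basophils with most of their UMIs in 1 cell, and the lowest Vpreb3, Apoe, Ly6c2, Socs3 and Palld. Of the UMIs of Vpreb3 and Palld in the cells without Il21, 58.2% and 63.3% came from 1 cell.

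The members were not uniform. Cntn5-high members exceeded Cntn5-low members 2-fold in 39 of 6361 genes (0.613%) and were lower by as much in 55 (0.865%). The highest were Cntnap2 (399 against 37.8 CPM, found in 89 of 337 cells), Grin2a, Clmp, Scn9a and Akr1c18, of which Cntnap2, Grin2a and Scn9a are known from neurons. The lowest were Prss34, Mcpt8, Retnlg, Camp and Ltf, each with at least 67.1% of its UMIs in 1 Cntn5-low cell. The chemokine gene Ccl3 was at 19.9 CPM in Cntn5-high and 210 in Cntn5-low members, and the T-box factor Tbx21 at 8.65 and 23.9. The Tfh list differed little, with a median of 0.16: Tox2 was at 217 and 236 CPM, Maf at 810 and 709, and Pdcd1 at 132 and 150.

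A cell defined as Tfh by surface proteins holds CXCR5 and PD-1, so the members were also set against the 121 cells of the gate that had UMIs of Pdcd1 and Cxcr5 but not of Il21. Both genes were found in 26.7% of members (162) and 9.41% of the cells without Il21, or in 7.80% and 3.33% at 3900 UMIs per cell. Against those 121 cells, 71 of 6413 genes were called higher (1.11%) and 35 lower (0.546%). The 9 remaining Tfh genes had a median log2 ratio of 0.16, with 5 above 0, and the median turned to -0.37 when cells were thinned before the gates and to -0.03 when at least 2 Cd4 UMIs were required. Tox2 was at 225 against 241 CPM, Bcl6 at 127 against 143 and Tox at 2303 against 2336. Genes of chronically stimulated T cells had a median of -0.02 over 11 in this comparison, and genes upstream of Il21 had 0.27. Cd200 was at 341 against 165 CPM, Nrp1 at 257 against 91.9 and Irf4 at 71.6 against 39.2. Beside Prss34 and Mcpt8, the highest were Spp1 (833 UMIs in 71 members against 5 in 3 cells), Ccl4 (259 against 13.6 CPM) and Scg2 (89.4 against 4.79). The lowest were Glis3 (7.97 against 54.3 CPM), Tshz2, Ly6c2, Neto1 and Retnlg, with 46.5% (Tshz2) and 54.7% (Retnlg) of those cells' UMIs in 1 cell, and Eomes was at 1.91 against 43.9.

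The members were also divided by their number of Il21 UMIs, with 1, 2, 3 or 4, and 5 or more. Ntng1 stood at 554, 573, 676 and 767 CPM over these 4 classes. Ralyl was at 4083 CPM with 1 UMI and 6334 with 5 or more, and Tnfsf8 at 680 and 1032, with the classes between them out of order. Cacna1d, a calcium channel subunit, was at 227 CPM with 1 UMI and between 378 and 404 above that. Satb1 was at 144 CPM with 1 UMI and between 74.9 and 84.9 above that. Maf stood at 719, 798, 739 and 871 CPM. Tox2 had no order, at 244, 192, 237 and 219 CPM, nor did Bcl6, at 123, 117, 146 and 116. The share of Cntn5-high cells was 43.0% with 1 UMI and between 62.3% and 64.3% above that. Median depth went from 8181 to 10615 UMIs over these classes and its part in these levels was not tested.

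**Figure D4:**
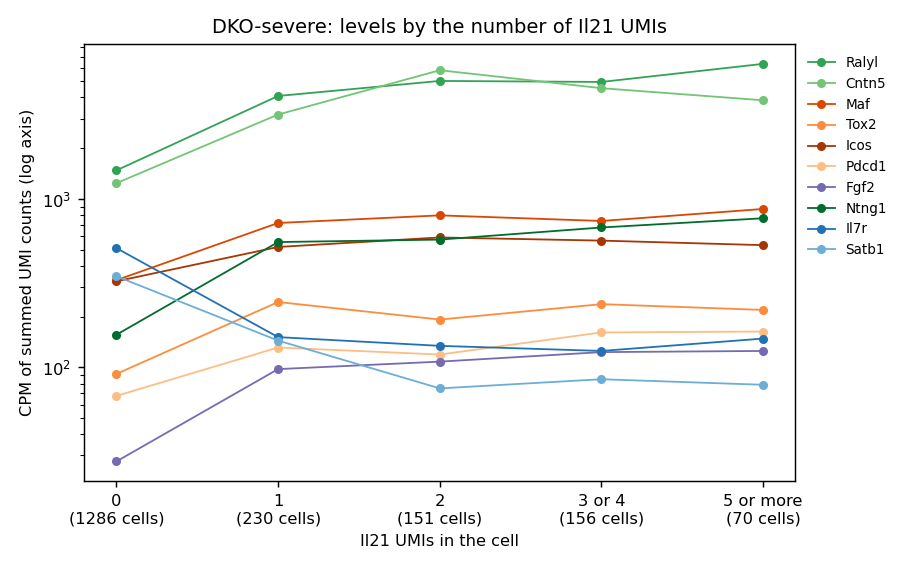
CPM of summed UMI counts (log axis) of 10 genes in DKO-severe gate cells by the number of Il21 UMIs in the cell, with the number of cells under each class. The step from 0 to 1 UMI is the largest for most lines, and Satb1 is lower in each class with Il21 (74.9 to 144 CPM) than without it (347 CPM).

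Around Il21 itself, in a window of 500 kb on both sides whose genes were read after the first values were seen, the body of Fgf2 begins 116 kb from that of Il21. Fgf2 (chromosome 3, 37348346 to 37410108, plus strand) was at 111 CPM in the members and 27.6 in the cells without Il21, a log2 ratio of 2.00 (1.80 to 2.21). It was found in 338 of 607 members and 180 of 1286 other cells, or 33.1% and 8.57% at 3900 UMIs per cell, where 1.66% of Cd8-gated cells held it at all UMIs. WT cells without Il21 had 2.95 CPM, and the 19 WT members held 4 Fgf2 UMIs. Between these genes lie Cetn4 at 8.13 against 3.09 CPM and Bbs12 at 7.17 against 3.86. Nudt6, which overlaps the end of Fgf2 on the opposite strand, was at 9.25 against 13.2 CPM. On the far side of Fgf2, Spata5 was at 82.3 against 95.8 CPM. Spry1, an inhibitor of growth factor signalling 407 kb away, was at 19.6 against 7.92. Il2, 96.8 kb away on the other side, was at 11.3 against 5.41 CPM, and 4932438A13Rik, 170 kb away, at 202 against 185. Within Ralyl-high cells Fgf2 was at 114 against 67.7 CPM. A list of 10 genes of the wider region on chromosome 3 had a ratio for 9, with a median of 0.31. This list is not the list of genes in this window, but it overlaps them. Its lowest and highest ratios, -0.52 and 2.00, equal those of Nudt6 and Fgf2, so its median is not independent of the values above. Gm12534, which overlaps Il21 on the opposite strand, had 14 and 2 UMIs, and its reads cannot be told with certainty from those of Il21.

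T cell receptor V segments were read from the 3' counts as the segment with most UMIs in a cell. A leading Trbv segment was found in 248 members (40.9%) and 380 cells without Il21 (29.5%). Trbv13-2 led in 39.5% of those members (98 of 248, 33.4 to 45.9%) and 18.7% of the others (71 of 380), Trbv12-2 in 28.2% and 22.4%, and Trbv19 in 11.3% and 18.2%. No other Trbv segment reached 5% of members. The effective number of segments (the inverse Simpson index) was 3.94 in members, 7.15 in the cells without Il21 and 13.5 in WT cells without Il21. Among Trav segments, examined after their values were seen, Trav9-2 led in 37.7% of members (46 of 122, 29.1 to 46.9%) and Trav8d-1 in 36.1% (44 of 122). These shares were 11.2% and 8.51% of 188 cells without Il21. The effective number was 3.62 in members, 22.0 in the cells without Il21 and 35.3 in WT cells without Il21.

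The same segments led in cells without Il21 that shared Ralyl or Cntn5 with the members. In Ralyl-high cells without Il21, Trav9-2 led in 31.6% (18 of 57), Trav8d-1 in 26.3%, Trbv13-2 in 33.6% (49 of 146) and Trbv12-2 in 32.9%, and the effective numbers were 5.44 for Trav and 4.05 for Trbv. In the remaining cells without Il21 these numbers were 26.0 and 8.31. In Foxp3-positive cells they were 13.1 and 4.21. Counted by segment, Il21 was found in 68.7% of gate cells led by Trav9-2 (46 of 67), 73.3% led by Trav8d-1 (44 of 60), 58.0% led by Trbv13-2 and 45.2% led by Trbv12-2, against 28.9% for Trbv19 and 13.5% for Trbv15. Of members led by Trbv13-2, 71.4% were Cntn5-high, and of those led by Trbv19, 10.7% (3 of 28, 2.27 to 28.2%). Both chains were read in 121 gate cells. A pair of Trbv13-2 or Trbv12-2 with Trav9-2 or Trav8d-1 was found in 45 of 68 members with both chains (66.2%) and 13 of 53 such cells without Il21 (24.5%). These segments were picked because they led in members, so this difference is not independent of the single-chain shares above. Trbv13-2 with Trav8d-1 was seen in 15 cells, 14 of them members, and with Trav9-2 in 19 cells, 13 of them members. Trbv12-2 with Trav8d-1 was seen in 12 cells, 8 of them members, and with Trav9-2 in 12 cells, 10 of them members.

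**Figure D5:**
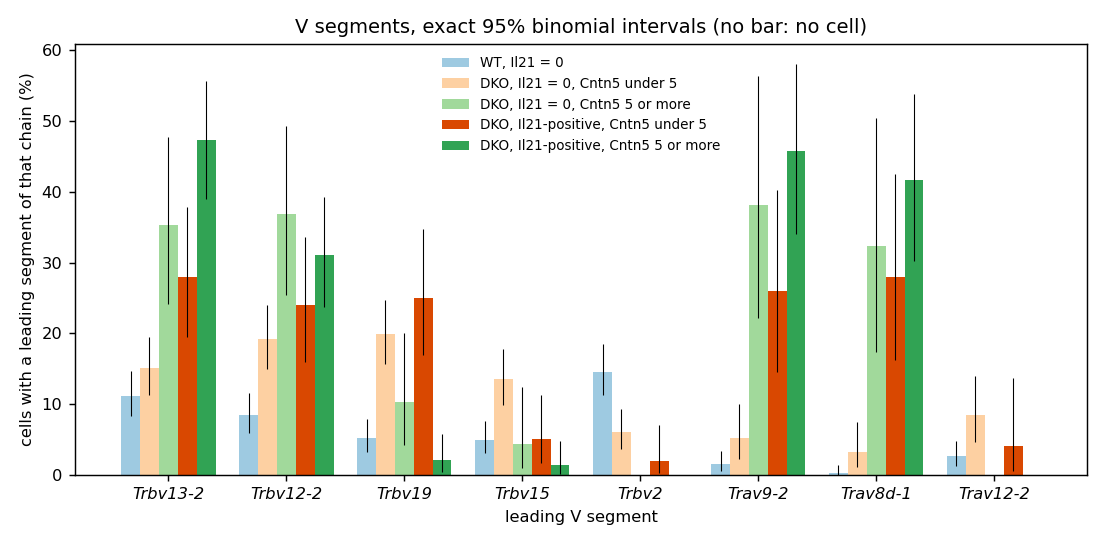
Share of cells led by each V segment, of cells with a leading segment of that chain (percent, exact 95% binomial intervals), in WT cells without Il21 and in DKO-severe cells divided by Il21 and by Cntn5. Trbv13-2 (47.3%), Trav9-2 (45.8%) and Trav8d-1 (41.7%) are highest in Cntn5-high cells with Il21, and the intervals of Cntn5-high cells without Il21 overlap theirs for these 3 segments.

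The V exons of the 4 segments that led in members are given to show how far reads could tell them from related segments. Capitals mark bases inside a window of 30 that also occurs in another of 171 V genes of the T cell receptor beta and alpha loci (GENCODE vM21 exons on GRCm38.p6, plus strand).
Trbv13-2, chr6:41121539-41121832: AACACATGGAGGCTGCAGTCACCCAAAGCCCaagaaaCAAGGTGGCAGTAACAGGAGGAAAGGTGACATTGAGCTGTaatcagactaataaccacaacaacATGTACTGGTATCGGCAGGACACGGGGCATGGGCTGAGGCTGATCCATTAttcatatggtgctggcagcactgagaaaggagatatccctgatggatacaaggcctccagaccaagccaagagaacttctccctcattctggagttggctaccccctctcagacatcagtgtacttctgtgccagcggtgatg
Trbv12-2, chr6:41119072-41119364: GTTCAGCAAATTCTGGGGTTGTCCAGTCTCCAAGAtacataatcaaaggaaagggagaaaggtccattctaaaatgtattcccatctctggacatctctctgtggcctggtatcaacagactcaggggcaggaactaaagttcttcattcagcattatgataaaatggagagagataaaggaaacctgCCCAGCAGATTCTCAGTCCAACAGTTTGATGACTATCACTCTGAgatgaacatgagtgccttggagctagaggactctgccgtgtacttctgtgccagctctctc
Trav9-2, chr14:53591221-53591514: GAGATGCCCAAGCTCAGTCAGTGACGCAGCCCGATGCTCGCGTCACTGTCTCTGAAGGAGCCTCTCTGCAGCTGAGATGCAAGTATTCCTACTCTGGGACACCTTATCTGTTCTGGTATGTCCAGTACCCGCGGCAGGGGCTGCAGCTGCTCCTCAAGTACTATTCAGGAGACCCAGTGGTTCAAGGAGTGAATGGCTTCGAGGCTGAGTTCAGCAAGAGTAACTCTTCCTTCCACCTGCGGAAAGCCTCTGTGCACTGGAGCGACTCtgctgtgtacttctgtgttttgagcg
Trav8d-1, chr14:52778711-52778995: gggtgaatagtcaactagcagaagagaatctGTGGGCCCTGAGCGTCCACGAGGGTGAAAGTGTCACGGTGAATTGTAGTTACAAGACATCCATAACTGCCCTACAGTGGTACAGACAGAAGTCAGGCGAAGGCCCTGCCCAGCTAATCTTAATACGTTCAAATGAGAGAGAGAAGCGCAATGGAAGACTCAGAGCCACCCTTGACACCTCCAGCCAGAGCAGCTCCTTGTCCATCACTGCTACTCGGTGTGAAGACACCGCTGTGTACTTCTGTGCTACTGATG
In Trbv13-2, 121 of 294 bases lay in shared windows, all with Trbv13-1 or Trbv13-3, and in Trbv12-2, 79 of 293. In Trav9-2, 268 of 294 bases were shared with other Trav9 segments, and in Trav8d-1, 254 of 285 with other Trav8 segments, so the names of both alpha segments are uncertain within their families. Of 607 members, 137 held a Trbv13-2 UMI, 109 a Trbv12-2 UMI and 39 both, whereas 1 held both Trbv19 and Trbv13-2. The Trbv12-2 gene ends 2031 bases before Trbv13-2 begins. Trav9-2 and Trav8d-1 occurred together in 10 members. No receptor sequence was assembled, so cells led by the same segments cannot be called a clone.

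The 19 WT members were too few for more than a description. Their median depth was 5045 UMIs, and their summed counts gave Maf at 539 CPM against 52.1 in WT cells without Il21, Icos at 341 against 92.7, Tox2 at 350 against 10.5 and Pdcd1 at 66.2 against 14.7. Of the 37 Tox2 UMIs, 24 came from 1 cell, and 5 cells held any. Cxcr5 was found in 5 cells, Icos in 13, Maf in 12 and both Pdcd1 and Cxcr5 in 3 (15.8%). Il4 was found in 4 (21.1%), against 80 of the DKO-severe members (13.2%). Ralyl was found in 2 WT members, with 19 UMIs of which 12 were in 1 cell, Cntn5 in 1 with 1 UMI and Ntng1 in none. The 8 WT members with a leading Trbv segment had 6 different ones. Trbv13-2 led in 1 of them and Trbv12-2 in none.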

How the data were processed

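UMI counts per gene and barcode were deposited by the authors as 1 filtered matrix per genotype, with 2 hashtags among the features. They were made with Cell Ranger 7.1.0 per the file headers, on mm10 per the labels, which also name Seurat. The matrices held 45294779 (WT) and 69692053 (DKO-severe) UMIs, with medians of 5626 and 7975 per barcode. Each matrix was assigned by its genotype label, checked against the hashtag in its cells. Counts were summed per pool and divided by the pool's total (CPM), and ratios of 2 pools were given as log2 with exact conditional intervals. A pool with fewer than 3 UMIs of a gene was set to a floor of 3 UMIs over the pool. No ratio was given with both pools at or under this floor. Shares have exact binomial (Clopper-Pearson) intervals. Genes were ranked at 100 or more UMIs and a mean of 20 CPM, leaving out the genes of the rule, immunoglobulin, haemoglobin, T cell receptor segment and sex-linked genes. The text names the 15 highest and lowest ratios against cells without Il21, the 5 highest and lowest of the other comparisons, the given markers, examples from 27 lists, and Trbv segments held by at least 5% of members. For equal depth cells were thinned to 3900 UMIs, the 10th percentile rounded down, which left out 17 DKO-severe members. Apart from the shares of whole gates and the settings named as thinned before the gates, cells were gated at all UMIs and then thinned. Doublets were kept, and 18 DKO-severe members were among the highest 6% of Scrublet scores (scanpy 1.11.5). Python 3.11.15, numpy 2.4.6 and scipy 1.17.1 were used, and the code was tested on simulated data. Members and lists were chosen with earlier results of these data known. Divisions by Ralyl, divisions of the members by Cntn5, Trav segments and the genes around Il21 were added after values were seen. Proteins were not analysed here.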

Additional observations from a re-analysis of the deposited data

How the results depend on the processing

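Each cell group came from 1 mouse, so no spread between mice could be measured, and every value rests on the filters of 1 matrix per genotype. The Il21-positive share of the DKO-severe gate was 32.1%. It was 19.9% with at least 2 Il21 UMIs, 39.0% with at least 2 Cd4 UMIs, 22.5% thinned before the gates and 21.5% thinned with another seed. The WT share of 1.12% was 0.176% with at least 2 Il21 UMIs and 1.99% with at least 2 Cd4 UMIs. The 171 genes called higher and 97 called lower became 680 and 725 with no CPM minimum and 20 UMIs, a setting that tests more genes of low count. With immunoglobulin, haemoglobin, mitochondrial and ribosomal genes out of the total, 153 were lower. The Tfh median of 0.76 was 0.58 without the limit on Dscam, Penk and Hapln1 and 0.68 with those genes out of the total. Against the Pdcd1 Cxcr5 cells without Il21 the Tfh median of 0.16 turned to -0.37 (thinned, 54 such cells), -0.03 (at least 2 Cd4 UMIs) and -0.10 (another seed). Single genes that turned were Prss34 (-3.31 thinned, -3.43 with the other seed), Mcpt8 (-2.88 and -3.12) and Slpi (0.11 with at least 2 Cd4 UMIs, 0.36 with the other seed). Pdcd1 (1.05) was under 2-fold in 3 settings (0.75 thinned, 0.79 without the limit on Dscam, Penk and Hapln1, 0.97 with the abundant genes out of the total) and Ccl4 (2.26) in 1 (0.95 thinned). Slpi was at -0.12 when thinned and without cells with transcripts of other lineages. Prss34 and Mcpt8 had most of their UMIs in 1 member and Slpi in 1 cell without Il21. The cause was not tested. Of 440 values over 34 genes, 303 stayed within the counting interval of the reported value, 131 moved beyond it and 6 turned. Naive genes had a negative median in every setting run, between -1.38 and -1.17. The other seed and the exclusion of cells with transcripts of other lineages were chosen after seeing the data. No paired analysis was possible because each genotype had 1 mouse and the result comes from no test.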
